A study of Mus musculus with 7 samples.

Results

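Genes that start, lengthen, cap, sever and coat actin filaments were examined in mouse oocytes lacking *Mfn1*, the outer-membrane protein that fuses mitochondria. By a rule written with earlier results of these data known, members were taken by gene symbol from the authors' deposited table, using no value. They are the subunits of the Arp2/3 complex and its activators, formins, Spire proteins, profilins, beta-thymosins, cofilins, gelsolin, capping proteins, tropomodulins, tropomyosins, the Ena/VASP family and zyxin. This gave 54 genes of the 22877 in the table. The oocytes came from secondary follicles of 8-week-old C57BL/6J females. *Mfn1-/-* oocytes carried floxed *Mfn1* alleles deleted by a Cre recombinase under the *Zp3* promoter, which is active in growing oocytes and not in granulosa cells, and WT littermates served as controls. Each library pooled 5 oocytes, and the labels list 4 WT and 3 *Mfn1-/-* libraries.

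Actin monomers are added to filaments mainly at one end, the barbed end. The Arp2/3 complex starts branches on existing filaments, whereas formins and Spire start unbranched ones. Profilins and thymosins hold the monomer pool, and cofilins return old filament to it. In growing and maturing oocytes, filaments seeded by *Fmn2* and the Spire proteins form a mesh through the cytoplasm that later moves the spindle to the cortex, and cortical actin carries the contacts with granulosa cells.

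The table used here gives 1 mean of normalized counts per gene and genotype, so every value below is the authors' mean. These means carry no spread between libraries and no depth per library, so no test was computed from them and no difference below is set against the spread between libraries. The table also holds the authors' own comparison, which was not used. A difference is given as the log2 ratio of the *Mfn1-/-* mean to the WT mean after adding a pseudocount of 0.1 to both, which understates the difference of genes with low means. Genes with a mean of at least 1 over the 7 libraries had a median log2 ratio of 0.16, so a gene at 0 lies slightly below the typical expressed gene. *Mfn1* itself was at 0.0577 in *Mfn1-/-* oocytes, compared with 0.616 in WT. The 13 oocyte markers summed to 4089 in *Mfn1-/-* and 3676 in WT oocytes. Of 14 granulosa cell markers 12 had a row, and these summed to only 3.24 and 3.53, with 7 of them under 0.1 in both genotypes. Markers of theca, stroma and smooth muscle summed to 0.286 and 0.502 over the 5 of 11 with a row. Those of blood and immune cells summed to 7.62 and 0.772 over the 3 of 7 with a row, nearly all of it from *Cd68*. In pooled cells, fewer contaminating cells and less RNA per cell cannot be told apart.

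Of the 54 genes 4 differed by more than 2-fold. *Zyx* had the higher mean in *Mfn1-/-* oocytes, and *Fmnl3*, *Pfn4* and *Spire1* had the lower mean. The remaining 50 lay within 2-fold, and 45 of the 54, or 83.3%, lay within 1.5-fold, compared with 80.7% of all genes. More than 2-fold differences were seen in both directions, and of all genes 4.87% were more than 2-fold higher and 2.75% more than 2-fold lower, compared with 1.85% and 5.56% of the actin regulators. After removal of the shift of 0.16, the background split became 3.58% higher and 4% lower, while the same 1 and 3 actin regulators passed. In either direction together the share was 7.41% for the actin regulators and 7.61% for all genes, so at this pseudocount the share of the set was close to the background. Their median log2 ratio was 0.01, beside 0.04 over all genes. Among the 21 members with a mean of at least 1 it was 0.05, with quartiles of -0.14 and 0.33, beside 0.16 for the 6226 genes of the table at that level, with quartiles of -0.12 and 0.42. Of these 21 members 0 were more than 2-fold higher and 2 lower, namely *Fmnl3* and *Pfn4*, against 5.44% and 3.24% of the 6226 genes (8.69% in either direction), of which 76.8% lay within 1.5-fold. The mean was higher in *Mfn1-/-* oocytes for 30 of the 54 members, or 55.6%, and for 56.7% of all genes, and at a mean of at least 1 for 12 of the 21 members, or 57.1%, and for 65.4% of genes. After subtraction of the shift, 17 of the 54 members were higher and 37 lower (31.5% higher, compared with 36.7% of all genes), and of the 21 members 9 were higher (42.9%, compared with 50% of genes).

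**Figure D1:**
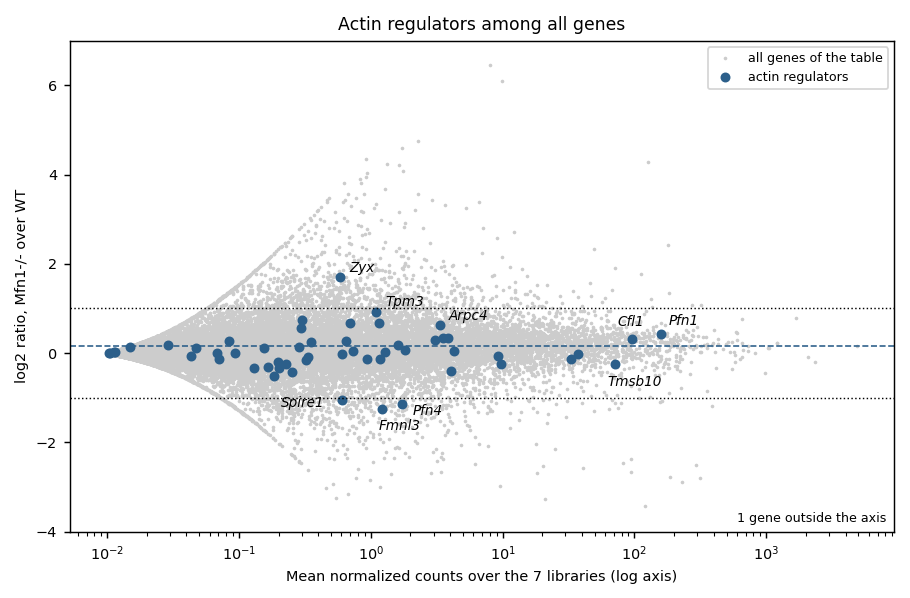
Each point is a gene, with its mean normalized counts over the 7 libraries on a log axis and the log2 ratio of *Mfn1-/-* to WT on the other axis. Grey points are all 22877 genes and blue points the 54 actin regulators, dotted lines mark 2-fold, 1 gene lies outside the axis, and the dashed line the median of 0.16 of genes with a mean of at least 1. Most actin regulators sit inside the dotted lines, with *Zyx* above and *Fmnl3*, *Pfn4* and *Spire1* below.

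Promoter windows are shown for 3 of the 4 members past 2-fold, which carry the largest differences, and for *Arpc4*, the one actin regulator with a CArG box in its window. The CArG box is the site of serum response factor, which controls many actin genes. Each window runs from 250 bases before to 50 bases after a RefSeq start on GRCm38.p6 and is printed 5′ to 3′ on the strand of the gene. Gene positions given elsewhere are from GENCODE M21. The RefSeq start lies 273 bases after the GENCODE start for *Pfn4* and 198 after it for *Zyx*. The *Pfn4* window and most of the *Zyx* window thus lie inside the GENCODE gene. Capitals mark the GC box GGGCGG on either strand, or the CArG box in *Arpc4*.
*Zyx*, chr6:42349578-42349877, plus strand: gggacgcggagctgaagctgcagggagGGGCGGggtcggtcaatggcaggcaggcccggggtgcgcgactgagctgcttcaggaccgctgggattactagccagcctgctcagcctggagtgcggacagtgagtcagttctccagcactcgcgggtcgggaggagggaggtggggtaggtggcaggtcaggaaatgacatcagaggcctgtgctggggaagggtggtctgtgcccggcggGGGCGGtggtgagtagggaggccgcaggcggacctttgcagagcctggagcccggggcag
*Fmnl3*, chr15:99370433-99370732, minus strand: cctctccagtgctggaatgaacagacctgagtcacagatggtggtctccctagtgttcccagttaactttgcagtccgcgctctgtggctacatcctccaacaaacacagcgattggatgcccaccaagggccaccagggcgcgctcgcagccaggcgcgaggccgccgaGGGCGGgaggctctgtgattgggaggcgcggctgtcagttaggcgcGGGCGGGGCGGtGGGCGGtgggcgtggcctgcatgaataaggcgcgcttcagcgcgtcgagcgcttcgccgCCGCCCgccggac
*Pfn4*, chr12:4769045-4769344, plus strand: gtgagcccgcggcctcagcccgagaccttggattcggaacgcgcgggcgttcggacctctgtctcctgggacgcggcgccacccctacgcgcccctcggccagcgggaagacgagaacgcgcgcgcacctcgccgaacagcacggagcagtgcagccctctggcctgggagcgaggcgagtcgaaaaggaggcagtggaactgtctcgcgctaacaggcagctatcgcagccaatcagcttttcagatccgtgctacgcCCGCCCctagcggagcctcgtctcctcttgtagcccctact
*Arpc4*, chr6:113377863-113378162, plus strand: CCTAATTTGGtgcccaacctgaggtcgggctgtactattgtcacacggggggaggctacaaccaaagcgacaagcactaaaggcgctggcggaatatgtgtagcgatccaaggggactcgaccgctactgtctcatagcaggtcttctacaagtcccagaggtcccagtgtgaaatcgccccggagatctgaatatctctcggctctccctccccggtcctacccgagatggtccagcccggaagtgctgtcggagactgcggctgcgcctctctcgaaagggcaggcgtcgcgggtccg
RefSeq windows were found for 48 of the 54 members. A GC box was present in 41 of these 48 genes, or 85.4%, compared with 58.7% of the genes of the table that have a window. At a mean of at least 1 it was present in 18 of 20 members with a window, or 90%, compared with 65.0% of genes. The *Fmnl3* window held 5 GC boxes, the *Zyx* window 2 and the *Pfn4* window 1. A CArG box was found in 1 of the 48 genes, or 2.08%, compared with 1.64% of all genes with a row. These matches describe the letters of the windows and not sites in use.

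Monomer-binding and severing proteins made up most of the transcript level of the set. *Pfn1*, *Cfl1* and *Tmsb10* together held 73.5% of the summed level in *Mfn1-/-* and 69.7% in WT oocytes, near-identical copies left out. The table does not name its scale. Its lowest values declined with exon length, as values already divided by length would, so levels are compared between genes as deposited. The first 3 places were held by these genes in both genotypes, and dividing by exon length kept the same 3 genes in front but moved *Tmsb10* ahead of *Cfl1* in both genotypes and ahead of *Pfn1* in WT oocytes, at 59.9 against 58.2 per kilobase.

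**Figure D2:**
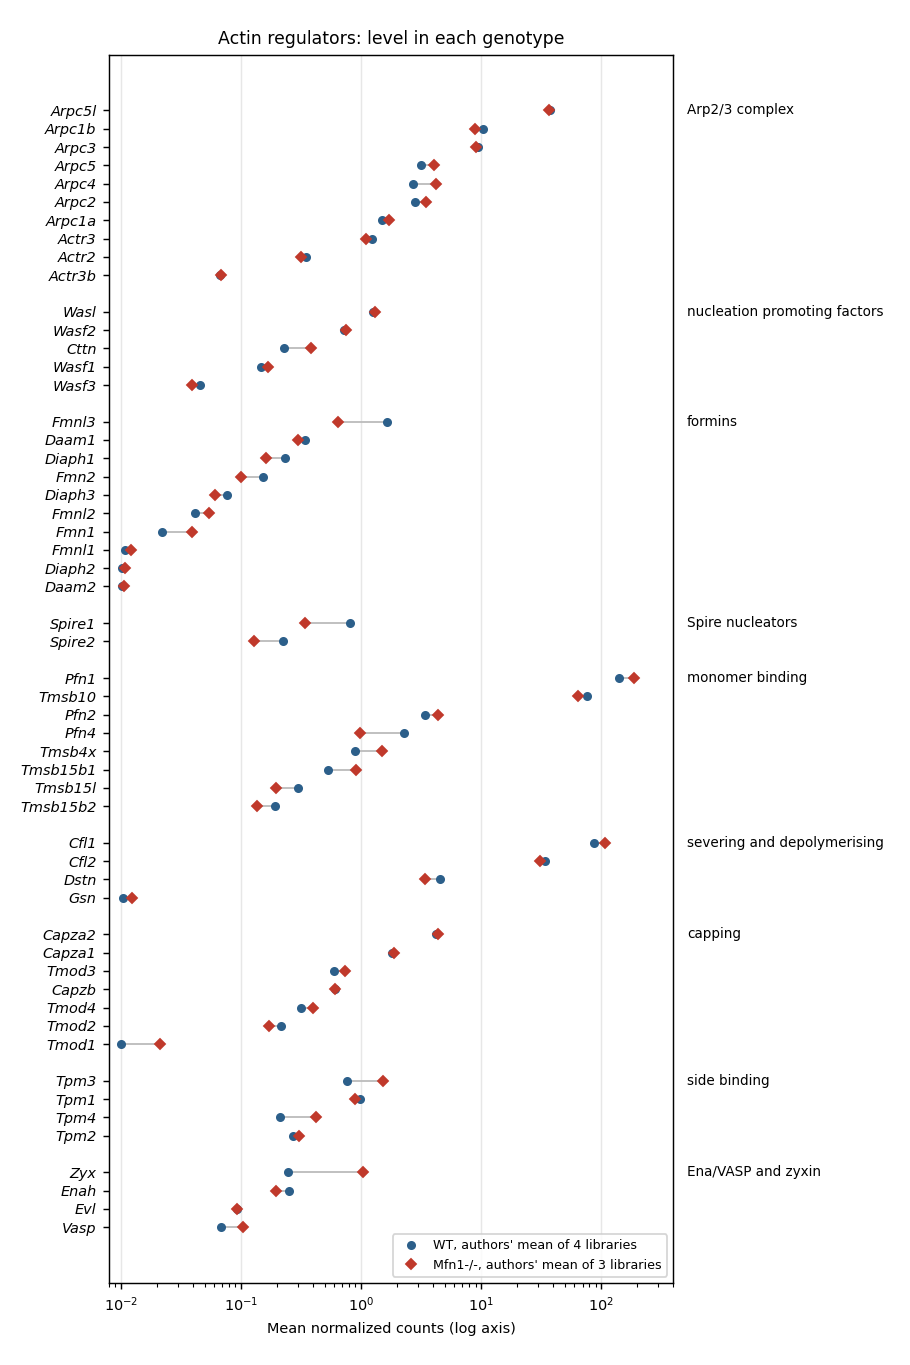
Mean normalized counts on a log axis for each of the 54 actin regulators, grouped by role, with blue circles for WT and red diamonds for *Mfn1-/-* oocytes. The grey line joins the means of a gene, and the level spans from the lowest value of the table, 0.01, to 187 for *Pfn1*, while the genotypes lie close together for most genes.

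Among the monomer-binding proteins the profilins diverged. *Pfn1*, the general profilin that loads monomers with ATP and feeds them to formins, was at 187 in *Mfn1-/-* oocytes and at 140 in WT (log2 ratio 0.42). *Pfn2*, its close relative, had 4.35 and 3.44 (0.33). *Pfn4*, a divergent profilin known mainly from male germ cells, had 0.982 in *Mfn1-/-* and 2.30 in WT oocytes, a log2 ratio of -1.15, or -0.74 at a pseudocount of 1, under 2-fold. *Pfn4* thus differed in the opposite direction from the other profilins. Its share of the summed profilin level was 0.511% in *Mfn1-/-* and 1.58% in WT oocytes, so the profilin total was set by *Pfn1*. *Pfn4* (chromosome 12, 4769022 to 4778813) shares exonic sequence with *Fam228b* on the opposite strand. *Fam228b* was far lower, at 0.0887 and 0.14.

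The beta-thymosins, small peptides that sequester actin monomers, showed no common direction. *Tmsb10*, by far the most abundant, had 64.6 in *Mfn1-/-* and 76.4 in WT oocytes, a log2 ratio of -0.24. *Tmsb4x* had 1.49 and 0.900, a log2 ratio of 0.67. The level of *Tmsb10*, near-identical copies left out, was 43.4 times that of *Tmsb4x* in *Mfn1-/-* and 84.9 times in WT oocytes. The 3 *Tmsb15* genes on chromosome X overlap each other on the same strand, so their reads cannot be assigned with certainty. *Tmsb15b1* had 0.913 and 0.532, while *Tmsb15l* had 0.196 and 0.298 and *Tmsb15b2* had 0.135 and 0.192.

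The severing proteins also split by paralog. *Cfl1*, the widely expressed cofilin, had 108 in *Mfn1-/-* and 86.7 in WT oocytes, a log2 ratio of 0.32. *Cfl2*, known as the muscle cofilin, had 31.2 and 34.0 (-0.12), and destrin, *Dstn*, had 3.40 and 4.51 (-0.40). *Cfl1* was the one with the higher mean in *Mfn1-/-* oocytes. Its share of the 3 genes, near-identical copies left out, was 75.7% in *Mfn1-/-* and 69.2% in WT oocytes. *Gsn*, which severs and caps filaments in response to calcium, was near the lowest value of the table, with 0.0125 and 0.0105.

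The summed level of the Arp2/3 complex was nearly equal in both genotypes, and -0.15 on the log2 scale once the shift was subtracted. It is built from 7 subunits, and its 10 genes here include alternative forms of several of them. Their means summed to 69.5 in *Mfn1-/-* and 69.0 in WT oocytes, and 5 were higher and 5 lower (4 and 6 after the shift was subtracted), with a median log2 ratio of -0.01. None passed 2-fold, compared with 7.61% of all genes, and 9 of the 10 lay within 1.5-fold, compared with 80.7%. For 10 genes these counts are close to the background. *Arpc5l*, an alternative form of the *Arpc5* subunit, was the most abundant, with 36.7 and 37.4, a log2 ratio of -0.03. *Arpc5* itself had 4.06 and 3.17 (0.35), so *Arpc5l* held 90.0% of the pair in *Mfn1-/-* and 92.2% in WT oocytes. *Arpc5l* overlaps exons of *Rpl35*, a ribosomal protein gene with 28.2 and 23.4, on the opposite strand. Reads of the overlap cannot be assigned with certainty. *Arpc1b* had 8.83 and 10.4 (-0.23), and its alternative form *Arpc1a* 1.72 and 1.51 (0.18). In both pairs the less abundant form had the higher ratio. On the opposite strand *Arpc1a* overlaps exons of *Kpna7*, with 5.84 and 6.28, and *Arpc1b* those of *Pdap1*, with 2.11 and 1.25. The limit given for *Arpc5l* holds for them too. *Arpc3* had 9.02 and 9.37 (-0.05), *Arpc2* had 3.47 and 2.80 (0.30), and the actin-related subunit *Actr3* had 1.11 and 1.23 (-0.14). The largest difference was that of *Arpc4*, which had 4.22 in *Mfn1-/-* and 2.69 in WT oocytes, a log2 ratio of 0.63. *Arpc4* (chromosome 6, 113378115 to 113390448) overlaps exons of *Ttll3* on the same strand, which has no row in the table. The other actin-related subunit, *Actr2*, had 0.319 and 0.346, and *Actr3b* 0.0682 and 0.0675.

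Activators of the complex were low, and 4 of the 5 had log2 ratios between -0.07 and 0.11. *Wasl*, the N-WASP protein that passes signals from *Cdc42* to the Arp2/3 complex, had 1.30 in *Mfn1-/-* and 1.27 in WT oocytes, a log2 ratio of 0.03 that was -0.13 after the shift was subtracted. *Wasf2*, which acts downstream of Rac, had 0.744 and 0.719 and made up 78.3% and 78.8% of the WAVE genes. *Cttn*, cortactin, which stabilizes branches, had 0.385 and 0.227, a log2 ratio of 0.57. Its near-identical copy *Gm29787* went the other way, with 0.158 and 0.218, and the sum had a log2 ratio of 0.24. *Wasf1* and *Wasf3* were at or under 0.167 in both genotypes.

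Formins and Spire proteins start unbranched filaments, and *Fmnl3* and *Spire1* among them were more than 2-fold lower in *Mfn1-/-* oocytes. With the pseudocount, 9 of the 10 formins lay within 1.5-fold, compared with 80.7% of all genes. On the deposited means without it, *Fmn1* at a ratio of 1.77 and *Fmn2* at 0.664 were also past 1.5-fold. *Fmnl3*, a formin linked to filopodia, was the most abundant formin, with 0.640 in *Mfn1-/-* oocytes, 1.65 in WT and a log2 ratio of -1.24, or -0.69 at a pseudocount of 1, under 2-fold. *Fmnl3* lies on chromosome 15 from 99317225 to 99370482 and overlaps no other gene on its exons. It held 46.0% of the summed formin level in *Mfn1-/-* and 64.8% in WT oocytes. The summed formin level, near-identical copies left out, was 1.39 and 2.55, and *Fmnl3* accounts for most of the difference. *Fmn2*, the formin of the oocyte cytoplasmic mesh, had 0.101 and 0.152, a log2 ratio of -0.33. The diaphanous formin *Diaph1* had 0.163 and 0.231, and *Daam1*, a Wnt-linked formin, 0.298 and 0.340. *Diaph3*, *Fmn1* and *Fmnl2* were under 0.1 in both genotypes, and *Daam2*, *Diaph2* and *Fmnl1* were close to the lowest value of the table. With its near-identical copy added, *Diaph3* was at 0.288 and 0.743. Of the 10 formins 5 were higher and 5 lower, compared with 56.7% of all genes higher. After the shift was subtracted 1 was higher and 9 were lower, compared with 36.7% of all genes higher. For the 6 formins with a mean under 0.1 the pseudocount holds most ratios near 0. The subtraction can then set their direction by itself, as for *Daam2*, *Diaph2*, *Fmnl1* and *Fmnl2*, so this count shows no common fall.

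Both Spire genes had lower means in *Mfn1-/-* oocytes. Of all genes 56.7% had a higher mean, or 36.7% after the shift was subtracted, so this count over 2 genes shows no common fall. *Spire1*, which works with *Fmn2* in seeding the mesh, had 0.342 in *Mfn1-/-* and 0.809 in WT oocytes, a log2 ratio of -1.04, or -0.43 at a pseudocount of 1, under 2-fold (chromosome 18, 67488209 to 67610790). *Spire2*, its paralog on chromosome 8, had 0.128 and 0.225, a log2 ratio of -0.51. Together they summed to 0.47 and 1.03. Both Spire genes and *Fmn2* were below 1 normalized count in both genotypes.

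**Figure D3:**
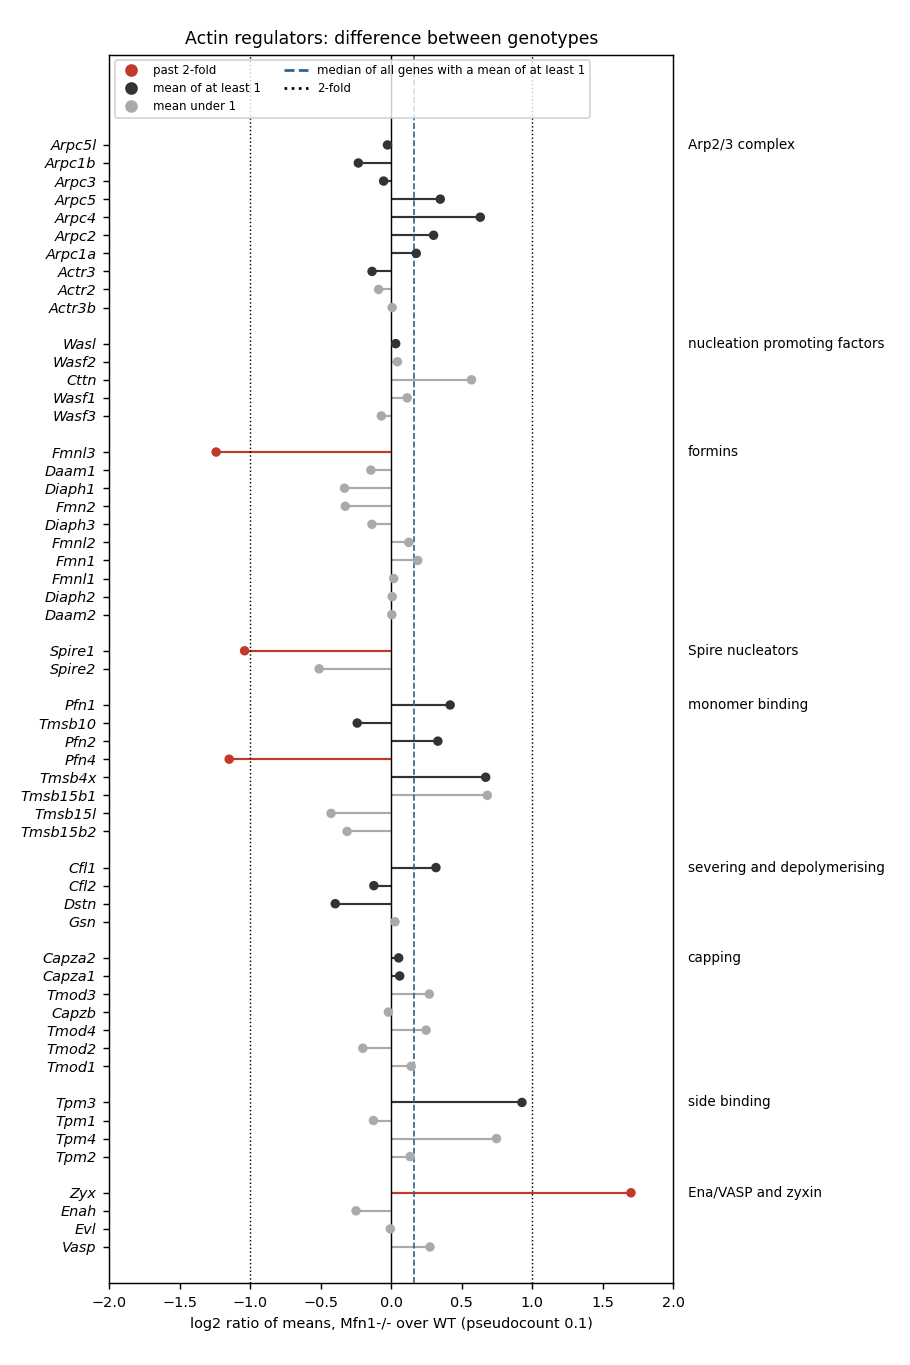
Log2 ratio of means, *Mfn1-/-* over WT, with a pseudocount of 0.1, for each of the 54 actin regulators grouped by role. Red points are past 2-fold, black points have a mean of at least 1 and grey points a lower mean, and the dashed line is the median of 0.16 of all genes with a mean of at least 1. Arp2/3 and capping genes lie near the centre, both Spire genes lie left of 0, and *Tpm3*, *Tpm4* and *Zyx* lie to the right. The point of *Tmod1* rests on a WT mean at the lowest value of the table.

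Capping proteins, which close filament ends, were close between genotypes. The barbed-end capping subunits *Capza2* and *Capza1* had 4.39 and 1.88 in *Mfn1-/-* and 4.23 and 1.80 in WT oocytes, log2 ratios of 0.05 and 0.06 that turned to -0.11 and -0.10 after the shift was subtracted. Without near-identical copies, *Capza2* held 70.0% of the pair in *Mfn1-/-* and 70.1% in WT oocytes. With its copies added, *Capza1* was at 13.6 and 12.7, above *Capza2* in both genotypes. Their partner *Capzb* had 0.603 and 0.613. Of the tropomodulins, which cap the pointed end, *Tmod3* was the most abundant with 0.734 and 0.592, followed by *Tmod4* with 0.396 and 0.318 and *Tmod2* with 0.173 and 0.214. *Tmod1* had 0.0213 in *Mfn1-/-* oocytes and was listed at the lowest value, 0.01, in WT oocytes, so no ratio is given. The other 6 capping genes lay within 1.5-fold, compared with 80.7% of all genes.

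Tropomyosins, which run along filaments and shield them from cofilin, had a median log2 ratio of 0.44 over the 4 genes, the highest of the 9 role groups. This median was 0.28 after the shift was subtracted and 0.14 at a pseudocount of 1. Among members with a mean of at least 0.1, the Ena/VASP and zyxin group had a higher median, 0.72. *Tpm3* had 1.54 in *Mfn1-/-* and 0.763 in WT oocytes, a log2 ratio of 0.93 that passed 2-fold only with a pseudocount of 0.01 or none. *Tpm4* had 0.425 and 0.213 (0.75). *Tpm2* had 0.307 and 0.271, and *Tpm1* 0.884 and 0.974. Without near-identical copies, *Tpm3* held 48.8% of the summed level in *Mfn1-/-* oocytes and *Tpm1* 43.9% in WT oocytes. With the copy *Tpm3-rs7* added, *Tpm3* was at 11.6 and 6.47 and led in both genotypes.

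*Zyx*, an adhesion protein that brings Ena/VASP proteins to strained filaments, had the largest difference of the set at a pseudocount of 0.1. It was at 1.03 in *Mfn1-/-* oocytes, compared with 0.248 in WT, a log2 ratio of 1.70. The ratio depended on the pseudocount, being 2.01 at 0.01 and 0.70 at 1, the latter under 2-fold. At 1 the difference of *Pfn4* was larger in size, at -0.74. The proteins it recruits did not share it. *Enah* had 0.196 and 0.252, *Vasp* 0.104 and 0.0687, and *Evl* 0.0922 and 0.0931. *Zyx* (chromosome 6, 42349630 to 42360213) overlaps exons of *Epha1* on the opposite strand, which had 0.0784 and 0.0318. *Pfn4* and *Zyx* are thus the members past 2-fold with an overlapping gene, at low level in both cases. Beside the *Zyx* difference, the summed granulosa cell markers were lower in *Mfn1-/-* oocytes, at 3.24 against 3.53, with 3 markers higher and 9 lower. Most of that sum came from *Inha*, higher at 1.87 against 0.954, and *Esr2*, lower at 0.929 against 1.86. The macrophage marker *Cd68* was higher, at 7.58 against 0.672. The other two blood and immune markers with a row were lower, *Lyz2* at 0.01 against 0.0203 and *Hba-a2* at 0.0285 against 0.0793. The part of these cells in the *Zyx* difference was not tested.

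Several members share long stretches of sequence with other genes, and part of their reads may have been counted there. Of the 54 members 24 match a transcript of another gene over 75 or more bases with 95% identity. For 11 members the copies have a row and match over at least 200 bases without overlapping the member. *Tpm3-rs7*, which matches *Tpm3* over 2108 bases, had 10.1 in *Mfn1-/-* and 5.71 in WT oocytes, far above *Tpm3* itself. The copy had a log2 ratio of 0.81, and the sum of both genes one of 0.84, so the difference of *Tpm3* was of similar size with its copy added. The *Tpm4* copy *Gm7809* had 0.817 and 0.422, and the sum a log2 ratio of 0.87. For *Cfl1* the copy *Gm6180* had 60.4 and 45.7, which gave a log2 ratio of the sum of 0.35. *Gm9844*, the copy of *Tmsb10*, had 62.2 and 66.3, about as much as *Tmsb10* itself, and the sum had a log2 ratio of -0.17.

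For some genes of the Arp2/3 complex and of capping, most of the level lay in the copies. They held 86.5% of the summed level of *Actr3* in *Mfn1-/-* and 84.6% in WT oocytes, and adding them moved its log2 ratio from -0.14 to 0.04. The copies of *Capza1* held 86.2% and 85.8%, and the sum had a log2 ratio of 0.10. For *Arpc1b*, *Gm5637* had 18.5 and 19.1, and the sum had a log2 ratio of -0.11. *Actr2* with its copy *Gm9729* had 1.31 and 2.05, a log2 ratio of -0.61 in place of -0.09. *Diaph3* with *Gm45403*, which matches it over 273 bases, passed 2-fold with a log2 ratio of -1.12. The low values of *Actr2*, *Actr3*, *Capza1*, *Diaph3*, *Tpm3* and *Tpm4* above are therefore uncertain as levels. Of the 4 members past 2-fold, none has such a copy.

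**Figure D4:**
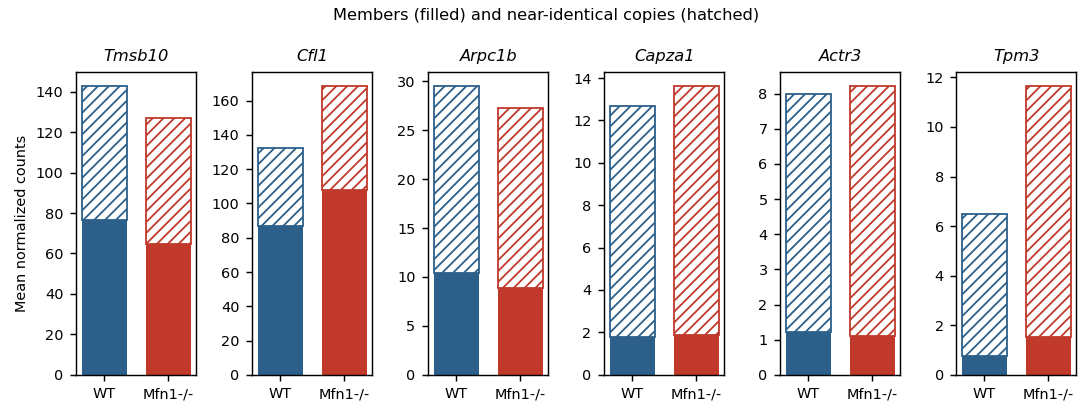
Mean normalized counts in WT (blue) and *Mfn1-/-* oocytes (red) for the 6 members that reach a mean of 1 in either genotype and have near-identical copies with a row. Filled bars are the member and hatched bars the sum of its copies, stacked on a linear axis that starts at 0. For *Actr3*, *Arpc1b*, *Capza1* and *Tpm3* the hatched part exceeds the filled part, and the total of *Tpm3* is higher in *Mfn1-/-* oocytes.

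Regulators and partners of these proteins that are not members were also examined. Of a list of 63 genes 58 had a row, 26 of them with a higher and 31 with a lower mean in *Mfn1-/-* oocytes (15 and 43 after the shift was subtracted), and their median log2 ratio was -0.01, beside 0.04 over all genes. A higher mean was thus seen in 44.8% of the list and 56.7% of all genes, or in 25.9% and 36.7% after the shift was subtracted. Of the 58, 2 were more than 2-fold higher and 0 more than 2-fold lower, against 4.87% and 2.75% of all genes, or 3.45% against 7.61% in either direction. One of them, named after its values were seen, was the filament bundler *Pls3*, with 0.420 and 0.111. The highest ratios at a mean of at least 1 included *Coro1b*, a coronin that acts on Arp2/3 branches, with 10.4 and 7.20 (0.52), and *Brk1*, the smallest WAVE complex subunit, with 13.3 and 10.1 (0.39). The 4 lowest were *Twf2*, a twinfilin that binds monomers, with 3.40 and 4.84 (-0.50), the kinase *Rock1* with 0.932 and 1.24 (-0.38), the adaptor *Nck1* with 1.30 and 1.70 (-0.36), and the Arp2/3 activator *Whamm* with 1.13 and 1.47 (-0.35). None of these genes at a mean of at least 1 reached 2-fold. *Srf*, the transcription factor of the CArG box, had 1.81 and 1.53, a log2 ratio of 0.23.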

How the data were processed

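RNA of 5 pooled oocytes per library was amplified by Smart-Seq2 and sequenced as paired 75 bp reads. The authors obtained gene counts by mapping to GRCm38 (mm10) in STAR, after cleaning of the reads in Cutadapt and the FASTX-Toolkit. The annotation, strand setting and versions are not given in the sources used here. The deposited signal is the mean of normalized counts per genotype and their sum over libraries, on a scale that is not named. The sum matches 3 *Mfn1-/-* and 4 WT libraries in 100% of genes (tolerance 1%), as the labels list, although the design text gives 3 per genotype. Every mean is at least 0.01 and the lowest sum is 0.0702, so a constant of 0.01 per library appears to be included. The 1st percentile of the sums above that constant was 0.00912 in the shortest and 0.00168 in the longest of 5 classes of exon length. The deposited p-values, FDR, ratio and fold change are the authors' own comparison and were not used. There were 0 columns of single libraries, so the planned limma test, leaving out of replicates and replicate block could not be fitted.

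Log2 ratios were computed from the means with a pseudocount of 0.1, with 2-fold as the threshold. Members with a mean of at least 1 or past 2-fold, the 4 highest and 4 lowest partner genes at a mean of at least 1, and *Mfn1* are named by rule, and other members are named with their values. Some partner genes that the rule names are not reported here. Members, lists and rules were chosen with earlier results of these data known. Positions and exon overlaps are from GENCODE M21 (54 of 54 members found), promoters from RefSeq GRCm38.p6. Copies were found with blastn 2.17.0. The ratio code was tested on simulated data. Python 3.11.15, numpy 2.4.6, pandas 2.3.3 and matplotlib 3.10.9 were used.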

Additional observations from a re-analysis of the deposited data

How the results depend on the processing

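With 1 mean per genotype, depth and spread are unknown and the values below show only how the ratios depend on arithmetic. No paired analysis was possible because the columns carry no replicate numbers, and leaving out replicates was not run for the same reason. Of the 54 actin regulators, 1 was more than 2-fold higher and 3 lower with a pseudocount of 0.1. At 0.01 instead, 2 were higher and 3 lower, beside 17.1% of all genes in either direction, and without any pseudocount 3 were higher and 3 lower, beside 21%, with *Tpm3* and *Tmod1* joining *Zyx*. In both settings the share of members was under that of all genes. At 1, 0 were higher and 0 lower, 0 in all, when 1.39% of all genes passed. Among members with a mean of at least 1, 2 passed, 0 of them higher. At 1.5-fold 9 passed, 6 of them higher, beside 19.3% of all genes. At 3-fold 1 passed and 0 were lower, beside 2.12%. Subtracting the median of expressed genes moved the median of the members to -0.15 and left 1 of 9 role groups above 0 in place of 5, and 13 members changed direction. Alternatives chosen after seeing the data were subtraction of the constant, with 1 higher and 3 lower, and adding the copies, with 1 higher and 4 lower.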
